A study of Mus musculus with 8 samples.

Results

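The 8 sialyltransferases St6gal1, St3gal1, St3gal2, St3gal3, St3gal4, St3gal5, St3gal6 and St8sia4, the lysosomal sialidase Neu1 and the sialic acid activating enzyme Cmas were examined in microglia from the cortex of mice that had received IL-33 or vehicle. The 10 genes were taken by name from the 53801 genes of the deposited table, with earlier results of these data known, so their own differences between the treatments are given as a description: no p-value is attached to them, and counts of enzymes past a threshold are given only beside the same count over all genes. All 10 were found under their Ensembl identifiers. IL-33 is an alarmin, a cytokine that damaged or stressed cells release. It or vehicle, which the table's header names PBS, was injected on 1 side into a cerebral ventricle of mice at postnatal day 30, and the animals were killed 4 h later. The IL-33 group held mice 1 and 2 (female) and mice 3 and 4 (male), and the vehicle group mice 5 and 6 (female) and mice 7 and 8 (male), so n = 4 per treatment and n = 2 per treatment and sex. The sources used here do not give strain, genotype, dose, the hemisphere collected or the markers used for sorting. Each value is from sorted cells in bulk, in which fewer cells of a type and less RNA per cell cannot be told apart.

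Sialic acids are the sugars that most often end the glycan chains of the cell surface. Cmas couples them to CMP in the nucleus, and sialyltransferases of the Golgi then move them onto glycans: ST3Gal enzymes to the third carbon of galactose, ST6Gal enzymes to the sixth carbon, and ST8Sia enzymes to the eighth carbon of another sialic acid. Sialidases such as Neu1 take them off again. On microglia, sialic acids are known as ligands of Siglec receptors, several of which restrain activation, and as polysialic acid, a long sialic acid chain on a few carrier proteins.

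Recovered sequencing depth lay between 6989640 and 9323677 reads per mouse. The 8 microglial markers had a summed level of 88099 to 98378 normalized counts in IL-33 mice, against 149761 to 173219 in vehicle mice, and 5 of the 8 were lower with IL-33, among them Csf1r, the receptor for colony stimulating factor, at 34001 ± 2049 against 54693 ± 4730 (SD, n = 4 each). Summed markers of the border macrophage and monocyte list (2 of 6 lower) were at 216 to 276 in IL-33 mice and 661 to 771 in vehicle mice, and those of dendritic cells (2 of 5 higher, Cd209a at 0) at 415 to 487 and 188 to 239. Summed lymphocyte markers (1 of 6 higher) lay between 42.7 and 83.8 in IL-33 mice and between 2.52 and 7.63 in vehicle mice; Cd3e, Cd3d and Nkg7 were at 0 in all 8 mice. Summed neutrophil markers (0 of 6 tested) were at 1.01 to 5.95 in IL-33 mice and 0 to 4.21 in vehicle mice, with S100a8, S100a9, Ly6g and Retnlg at 0. The astrocyte list (1 of 6 higher, 1 lower) summed to 2401 to 2658 in IL-33 mice and 1561 to 1849 in vehicle mice, the neuron list (0 of 7 called) to 173 to 256 and 219 to 289, the oligodendrocyte list (2 of 6 higher, 1 lower) to 591 to 773 and 586 to 629, and the endothelial and pericyte list (1 of 6 higher, 1 lower) to 203 to 270 and 265 to 348. The part of these cell types in the differences below was not tested. Vehicle mouse 6 stood apart: the chi-square per degree of freedom between its reads and those of the other vehicle mice was 15.5 to 18.8, against 4 to 10.7 for the other 9 pairs of mice of a group. With all 8 mice the groups did not overlap for 7 of the 10 enzymes, against 52.3% of the 15110 genes tested below. Without vehicle mouse 6 the count of enzymes was also 7, and the share over all genes is not given for that setting. Leaving out a mouse cannot make separate groups overlap, so that count could not fall.

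The sialyltransferases moved in opposite directions after IL-33. St3gal1 and St3gal3 were higher, St8sia4, St6gal1, St3gal6, St3gal2 and St3gal5 were lower, and the groups overlapped for St3gal4, Neu1 and Cmas. In a limma fit over 15110 genes (those reaching 10 normalized counts in 4 or more libraries, as all 10 enzymes did), 7 of the 10 passed an adjusted p of 0.05, 2 of them higher and 5 lower. The background is wide in this comparison: 57.7% of all tested genes passed, 29.2% higher and 28.5% lower. The 4 IL-33 values lay wholly outside the 4 vehicle values for 7 of the 10 enzymes, above them for 2 and below them for 5, against 52.3% of all tested genes, 26.7% above and 25.6% below. Since this contrast was in view when the enzymes were chosen, nothing is read from these shares. The median log2 difference (IL-33 minus vehicle) was -0.22 over the 10 enzymes and 0.02 over all tested genes.

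**Figure D1:**
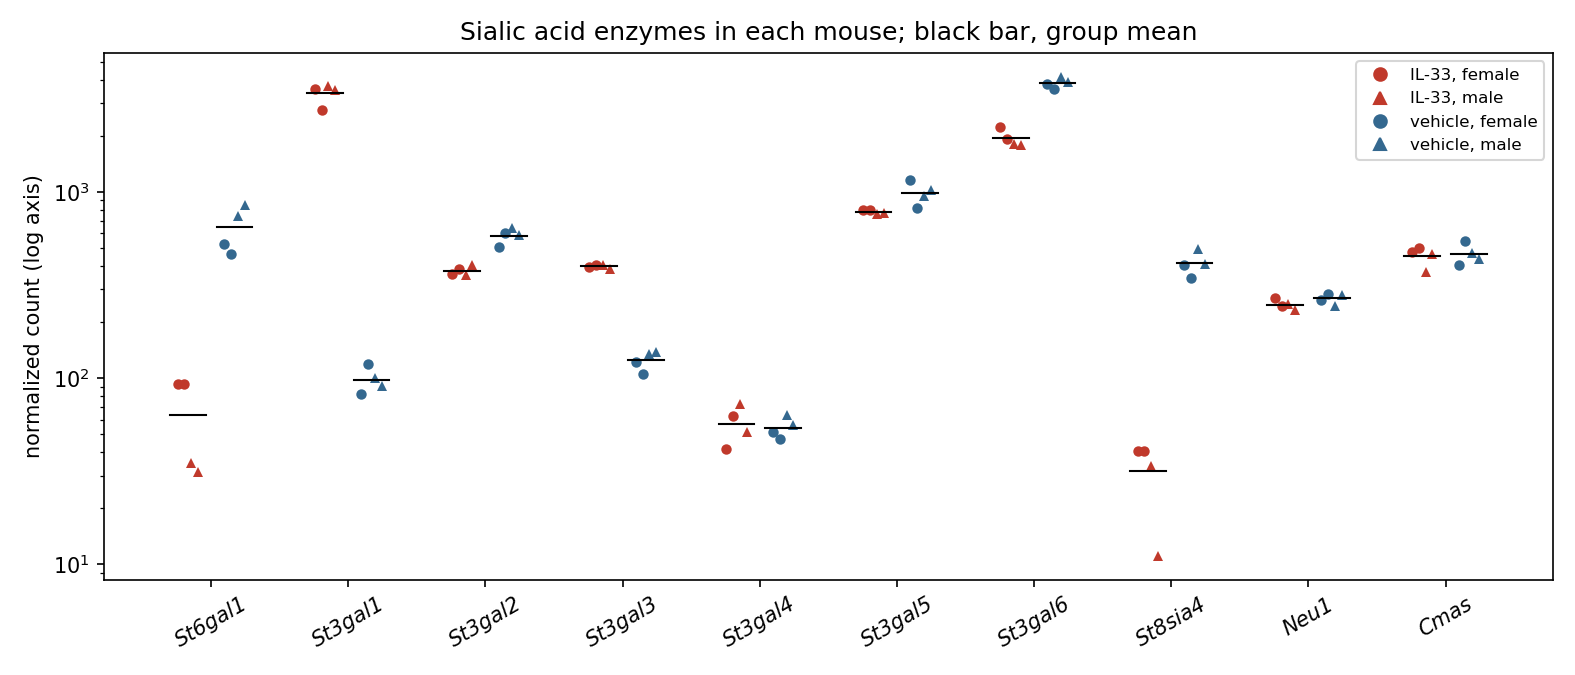
Normalized counts (log axis) of the 10 enzymes in each of the 8 mice, IL-33 mice in red and vehicle mice in blue, females as circles and males as triangles, with a black bar at each group mean. St3gal1 averaged 3388 in IL-33 mice and 98.0 in vehicle mice, St8sia4 31.6 and 413, and the points of the groups overlap for St3gal4, Neu1 and Cmas.

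St3gal1 (ENSMUSG00000013846, chr15:67102875-67176830 on the minus strand of GRCm38) puts sialic acid on the galactose of core O-glycans and so caps them. It had 3553, 2760, 3704 and 3535 normalized counts in IL-33 mice 1 to 4, against 82.4, 119, 99.8 and 91.1 in vehicle mice 5 to 8. Every IL-33 mouse was more than an order of magnitude above every vehicle mouse. The means were 3388 ± 425 in IL-33 mice and 98.0 ± 15.6 in vehicle mice (SD, n = 4 each), a 34.6-fold ratio that rested on 13396 and 407 reads. On the log2 scale (of the normalized count plus 1) the difference was 5.10 ± 0.12 (SE), and 85 of the 15110 tested genes had a larger one in either direction. The difference was 5.23 in males and 4.97 in females.

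St3gal3 (chr4:117932154-118134914, minus strand), which sialylates the galactose of N-glycans and whose loss in humans impairs brain development, had 397, 408, 403 and 385 normalized counts in IL-33 mice and 122, 105, 135 and 138 in vehicle mice. The IL-33 mice were close to each other and all above the vehicle mice. The means were 398 ± 9.79 in IL-33 mice and 125 ± 15.3 in vehicle mice (SD, n = 4 each), with a ratio of 3.18 and a log2 difference of 1.67 ± 0.12 (SE).

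The other ST3Gal enzymes were lower or had overlapping groups. St3gal6 (chr16:58468125-58524243, minus strand), which acts on N-acetyllactosamine chains and takes part in making selectin ligands, had 2238, 1931, 1820 and 1795 normalized counts in IL-33 mice and 3782, 3554, 4146 and 3916 in vehicle mice. The groups did not overlap, and the log2 difference was -0.99 ± 0.08 (SE). Of its exon bases, 26.0% are shared with Dcbld2 on the opposite strand, and since the sources used here do not give the strand setting of the counting, reads of the 2 genes cannot be told apart there; Dcbld2 itself had 491 ± 84.4 normalized counts in IL-33 mice and 385 ± 17.2 in vehicle mice.

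St3gal2 (chr8:110919922-110972480, plus strand), which sialylates gangliosides and O-glycans, had 364, 384, 360 and 405 normalized counts in IL-33 mice and 508, 601, 639 and 587 in vehicle mice. All IL-33 mice were below all vehicle mice, with a log2 difference of -0.62 ± 0.10 (SE). St3gal5 (chr6:72097592-72154571, plus strand), which makes the ganglioside from which the more complex ones are built, had 802, 798, 762 and 774 normalized counts in IL-33 mice and 1158, 821, 946 and 1022 in vehicle mice. The groups did not overlap but came close, the lowest vehicle value (mouse 6) being 821 and the highest IL-33 value 802. Its log2 difference was -0.32 ± 0.10 (SE), and it lay between -0.43 (without vehicle mouse 6) and -0.23 (without vehicle mouse 5) when each mouse was left out.

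St3gal4 (chr9:35046576-35119268, minus strand), an enzyme of N-glycans, O-glycans and selectin ligands, had 41.6, 62.5, 72.5 and 51.2 normalized counts in IL-33 mice and 51.3, 46.9, 63.1 and 56.0 in vehicle mice. The highest and the lowest mouse were both in the IL-33 group. The log2 difference was 0.04 ± 0.22 (SE). It was the least precise of the 3 enzymes with overlapping groups. Of its exon bases, 14.1% are shared with 4930581F22Rik on the opposite strand, which had 108 ± 23.9 normalized counts in IL-33 mice and 128 ± 14.8 in vehicle mice.

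The enzymes lower by most after IL-33 were the polysialyltransferase and the ST6Gal enzyme. St8sia4 (chr1:95587682-95667571, minus strand) builds polysialic acid on carriers such as Nrp2 and Ccr7. It had 40.6, 40.7, 33.9 and 11.1 normalized counts in IL-33 mice and 406, 346, 491 and 409 in vehicle mice. IL-33 mouse 4 was the lowest, with 10 reads, against 36 to 41 reads in the other IL-33 mice and 317 to 537 in vehicle mice. The means were 31.6 ± 14.0 in IL-33 mice and 413 ± 59.8 in vehicle mice (SD, n = 4 each), with a vehicle to IL-33 ratio of 13.1. The log2 difference was -3.81 ± 0.35 (SE) over all mice and -3.38 without IL-33 mouse 4.

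St6gal1 (chr16:23224740-23360350, plus strand), which caps the galactose of N-glycans and makes ligands of the Siglec Cd22, had 93.3, 93.3, 34.8 and 31.2 normalized counts in IL-33 mice 1 to 4 and 525, 466, 745 and 853 in vehicle mice 5 to 8. The groups were far apart, and within each the females differed from the males: both IL-33 females were above both IL-33 males, and both vehicle females below both vehicle males. The means were 63.1 ± 34.8 in IL-33 mice and 647 ± 182 in vehicle mice (SD, n = 4 each), from 251 and 2717 reads. The log2 difference was -3.47 ± 0.45 (SE), and the vehicle to IL-33 ratio of the means was 10.2.

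Within the sexes, St6gal1 averaged 93.3 normalized counts in IL-33 females and 495 in vehicle females, and 33.0 in IL-33 males and 799 in vehicle males (n = 2 each). The log2 difference was -2.39 in females and -4.56 in males. The difference between these (males minus females) was -2.16 ± 0.25 (SE), with an adjusted p of 0.00206 in limma's interaction test, the only call among the 15110 genes in that fit (0.00662%). The adjusted p was 0.0558 without vehicle mouse 7, 0.053 without vehicle mouse 8 and 0.173 under eBayes without trend and robust. For the other 9 enzymes it lay between 0.521 and 0.993. St8sia4 was also lower by more in males (-4.45) than in females (-3.17) on the log2 scale, a gap that did not pass this test. Of St6gal1's exon bases, 4.07% are shared with BC106179 on the opposite strand, which was at 0 in all IL-33 mice and at 6.54 to 30.2 normalized counts in vehicle mice.

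**Figure D2:**
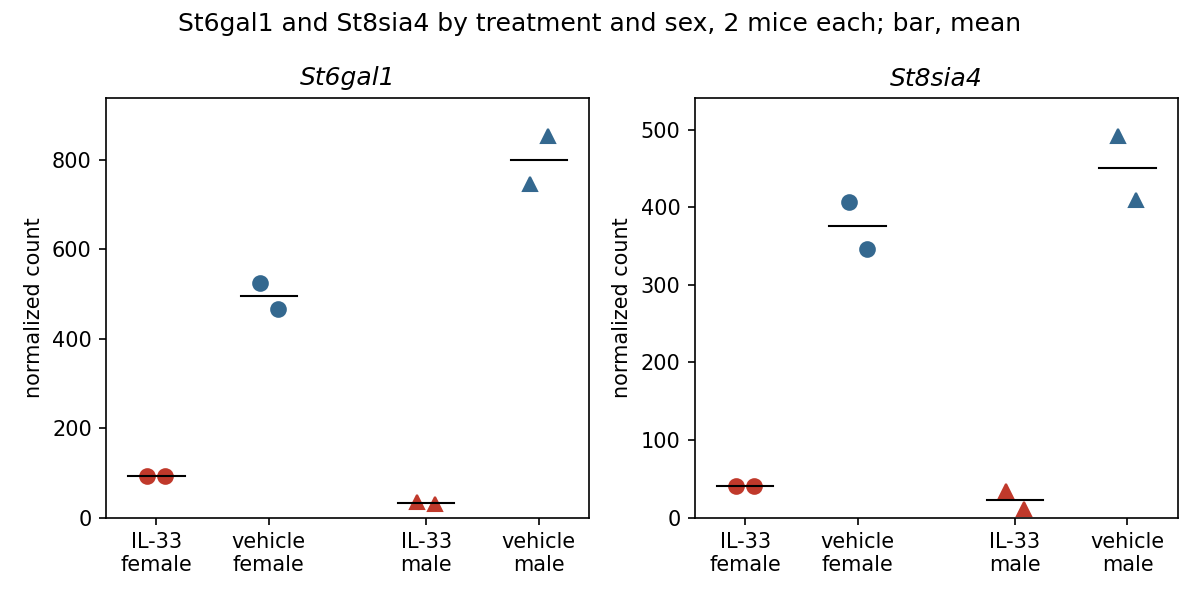
Normalized counts of St6gal1 (left) and St8sia4 (right) in each mouse, by treatment and sex, with 2 mice and a bar at the mean in each position; both axes start at 0. St6gal1 averaged 93.3 in IL-33 females and 495 in vehicle females, and 33.0 in IL-33 males and 799 in vehicle males.

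Promoters of the enzymes lower by most and of St3gal3, which was higher, are shown so that the upstream sequences of enzymes on opposite sides of 0 can be compared. RefSeq's GRCm38.p6 promoter table (250 bases before to 50 after a start) held 11 windows for 8 of the 10 enzymes, all but St3gal1 and St3gal2. The windows of St8sia4 (chr1:95667545-95667844, minus strand), St6gal1 (its first of 3 windows, chr16:23224490-23224789, plus strand) and St3gal3 (chr4:118134897-118135196, minus strand) read 5′ to 3′ as below, with GC boxes (GGGCGG) and CCAAT boxes (CCAAT), on either strand, in capitals.
St8sia4: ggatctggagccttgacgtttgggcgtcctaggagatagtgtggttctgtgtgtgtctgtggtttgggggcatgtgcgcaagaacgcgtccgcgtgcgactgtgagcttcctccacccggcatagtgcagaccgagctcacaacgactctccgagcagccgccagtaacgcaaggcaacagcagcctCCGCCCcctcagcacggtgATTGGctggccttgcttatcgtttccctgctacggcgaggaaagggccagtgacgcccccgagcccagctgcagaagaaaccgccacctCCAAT
St6gal1: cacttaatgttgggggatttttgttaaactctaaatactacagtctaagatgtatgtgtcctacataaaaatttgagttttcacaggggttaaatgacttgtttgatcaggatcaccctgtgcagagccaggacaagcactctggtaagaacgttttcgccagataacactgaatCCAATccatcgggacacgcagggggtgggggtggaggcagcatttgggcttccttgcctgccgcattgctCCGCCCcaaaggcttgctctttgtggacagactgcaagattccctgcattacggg
St3gal3: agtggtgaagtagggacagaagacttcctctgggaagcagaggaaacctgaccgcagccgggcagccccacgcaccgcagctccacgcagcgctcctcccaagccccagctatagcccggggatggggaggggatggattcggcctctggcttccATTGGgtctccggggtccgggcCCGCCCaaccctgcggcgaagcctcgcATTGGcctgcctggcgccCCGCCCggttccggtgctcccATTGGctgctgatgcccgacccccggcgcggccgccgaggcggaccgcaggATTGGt
St8sia4's window held 1 GC box and 2 CCAAT boxes, that of St6gal1 1 of each, and that of St3gal3 2 GC boxes and 4 CCAAT boxes; the 2 motifs did not overlap in these windows. Over the 11 windows, 8 held a GC box and 8 a CCAAT box, against 35.7% and 37.4% of all 32851 windows of the table. Of the motifs of factors known in myeloid activation, AP-1 (TGANTCA) was found in 2 of the 11, the third St6gal1 window and Neu1, against 7.81% of all windows. The PU.1 motif (GAGGAAGT) was found in 1, that of St3gal3, against 3.2%, and the NF-kB motif in 2, the second St3gal6 window and Neu1, against 8.46%. These are letter matches on both strands and show no binding.

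The enzymes that activate sialic acid and remove it from glycans had overlapping groups. Cmas (chr6:142756686-142775714, plus strand) had 476, 497, 371 and 462 normalized counts in IL-33 mice and 403, 549, 470 and 435 in vehicle mice. IL-33 mouse 3 was the lowest and vehicle mouse 6 the highest, with a log2 difference of -0.04 ± 0.11 (SE). Neu1 (chr17:34931253-34935953, plus strand), which works in a lysosomal complex with Ctsa and Glb1, had 270, 243, 249 and 232 normalized counts in IL-33 mice and 264, 285, 245 and 279 in vehicle mice. These also overlapped, with a log2 difference of -0.11 ± 0.11 (SE).

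Per kb of exon, so that genes can be set side by side, the order of the levels differed between the treatments. In IL-33 mice St3gal1 came first, at 495 ± 62.1 normalized counts per kb, followed by St3gal6 (315 ± 32.9), St3gal5 (299 ± 7.30), St3gal3 (144 ± 3.54), Cmas (95.8 ± 11.8), St3gal2 (75.0 ± 4.14), Neu1 (66.6 ± 4.30), St3gal4 (19.5 ± 4.595), St6gal1 (12.8 ± 7.09) and St8sia4 (1.57 ± 0.70; SD, n = 4 each). St3gal6 and St3gal5, Cmas and St3gal2, St3gal2 and Neu1, and St3gal4 and St6gal1 were neighbours whose ranges over the IL-33 mice overlapped. In vehicle mice the order was St3gal6 (624 ± 40.1), St3gal5 (377 ± 53.9), St6gal1 (132 ± 37.1), St3gal2 (116 ± 10.9), Cmas (98.5 ± 13.3), Neu1 (71.9 ± 4.73), St3gal3 (45.2 ± 5.53), St8sia4 (20.6 ± 2.98), St3gal4 (18.6 ± 2.38) and, last, St3gal1 (14.3 ± 2.27). There the ranges overlapped for St6gal1 and St3gal2, St3gal2 and Cmas, St8sia4 and St3gal4, and St3gal4 and St3gal1.

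The summed level of the 8 sialyltransferases differed by less than the spread between mice, at 1362 ± 63.4 normalized counts per kb in IL-33 mice and 1347 ± 107 in vehicle mice (SD, n = 4 each), a ratio of 1.01. Without St3gal1 the sums were 867 in IL-33 mice and 1332 in vehicle mice. St3gal1 made up 36.2% ± 3.54 of the sum in IL-33 mice and 1.08% ± 0.26 in vehicle mice, and St3gal6 23.1% ± 1.92 and 46.4% ± 1.70. St3gal5 made up 22.0% in IL-33 mice and 28.0% in vehicle mice, St3gal3 10.6% and 3.35%, St3gal2 5.52% and 8.64%, and St3gal4 1.44% and 1.38%. The share of St6gal1 was 0.94% in IL-33 mice and 9.68% in vehicle mice, and that of St8sia4 0.12% and 1.52%; with the longest transcript as length the St8sia4 shares were 0.19% and 2.35%. On that length the sums were 1671 ± 81.9 in IL-33 mice and 1748 ± 134 in vehicle mice. These are RNA shares and say nothing of the activity of each enzyme.

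**Figure D3:**
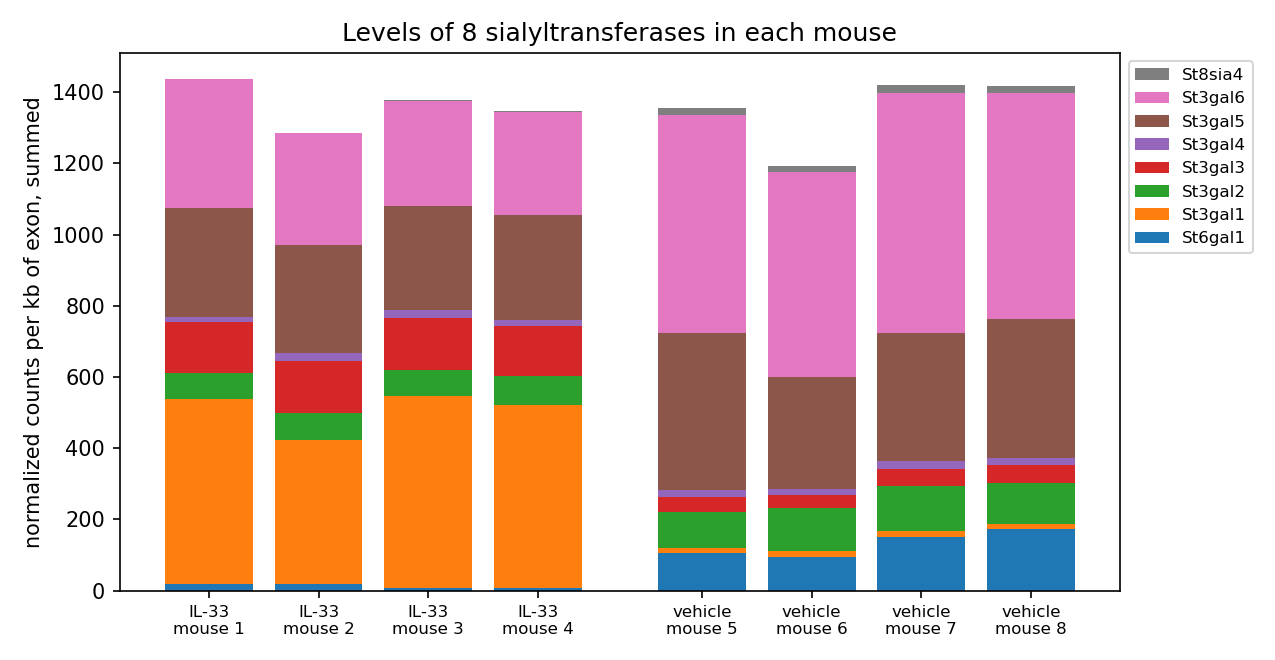
Stacked normalized counts per kb of exon of the 8 sialyltransferases, 1 bar per mouse, from 0, with IL-33 mice 1 to 4 on the left and vehicle mice 5 to 8 on the right. The bars sum to 1286 to 1438 in IL-33 mice and 1192 to 1421 in vehicle mice, with St3gal1 at 403 to 541 of this in IL-33 mice and 12.03 to 17.35 in vehicle mice.

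For 9 of the enzymes the tested gene with the most similar values was found, by the Euclidean distance between log2 values centred over the 8 mice. For St3gal1 it was Sdc4, a cell surface heparan sulfate proteoglycan (distance 0.26), with 4469 normalized counts in IL-33 mice and 130 in vehicle mice. For St6gal1 it was Galnt12, which starts O-glycan chains (0.95), with 23.3 and 241, and for St8sia4 the predicted gene Gm10384 (0.82), with 13.8 and 181. The nearest genes of the other enzymes were Slc29a1 for St3gal2, Pno1 for St3gal3, Reep4 for St3gal4, Mtm1 for St3gal5, Itprid2 for Neu1 and Rbks for Cmas, at distances of 0.11 to 0.30. The larger distances of St6gal1 and St8sia4 mean that their nearest genes followed their values mouse by mouse less closely.

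Around the 10 enzymes, 69 further genes of the sialic acid pathway were listed, of which 55 were tested; 12 rose, 24 fell and 19 did not pass, so that 65.5% of those tested were called, against 57.7% of all genes. Their median log2 difference was -0.25. Adjusted p-values in what follows are from limma over all tested genes, with means ± SD over n = 4 mice per treatment.

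Among the 12 other sialyltransferases, 7 were tested, 2 rose, 3 fell and 2 did not pass, with a median log2 difference of -0.29. St8sia6, which adds a short sialic acid extension to O-glycans, rose to 218 ± 55.0 normalized counts in IL-33 mice, against 44.8 ± 14.1 in vehicle mice (log2 2.28, adjusted p = 1.16e-07 in limma). St6galnac4, which sialylates O-glycans that St3gal1 has capped, fell to 552 ± 49.5 in IL-33 mice, against 901 ± 83.0 in vehicle mice (log2 -0.71, adjusted p = 6.87e-06 in limma). St6galnac6, an enzyme of gangliosides, fell to 107 ± 8.80, against 145 ± 12.7 (log2 -0.44, adjusted p = 0.0144 in limma), a call lost without IL-33 mouse 4 and in either sex alone.

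While the groups overlapped for Neu1, 4 of the 5 tested genes of the list of other sialidases and sialic acid release fell and 0 rose, with a median log2 difference of -1.33. Slc17a5, which carries freed sialic acid out of the lysosome, fell to 100 ± 15.6 normalized counts in IL-33 mice, against 312 ± 11.5 in vehicle mice (log2 -1.64, adjusted p = 1.83e-08 in limma). Npl, which splits sialic acid in the cytosol, fell to 200 ± 28.9, against 603 ± 72.6 (log2 -1.59). Siae, which removes acetyl groups from sialic acid, fell to 148 ± 17.7, against 374 ± 56.5 (log2 -1.33), and Ctsa, the partner that stabilises Neu1, to 4793 ± 212, against 6853 ± 206 (log2 -0.52, adjusted p = 2.62e-06 in limma).

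Of the 6 tested genes of sialic acid synthesis, transport and modification beside Cmas, 2 fell and 4 did not pass, with a median log2 difference of -0.14. Gne, the rate-limiting enzyme of sialic acid synthesis, fell to 197 ± 18.8 normalized counts in IL-33 mice, against 262 ± 29.2 in vehicle mice (log2 -0.40, adjusted p = 0.00671 in limma), and Nagk, the N-acetylglucosamine kinase, to 107 ± 10.01, against 157 ± 10.8 (log2 -0.55, adjusted p = 0.00332 in limma); both calls were lost in females alone. Of the 3 tested genes that make the precursor UDP-GlcNAc, 2 rose and 1 fell (median 0.52). Gfpt1, the entry enzyme, rose to 1513 ± 127 in IL-33 mice, against 759 ± 37.95 in vehicle mice (log2 0.99, adjusted p = 1.24e-08 in limma). Pgm3, a phosphoglucomutase of that route, rose to 120 ± 11.4, against 84.1 ± 10.6 (log2 0.52, adjusted p = 0.0105 in limma), a call lost in either sex alone, and Uap1, its last enzyme, fell to 188 ± 9.85, against 233 ± 21.2 (log2 -0.31, adjusted p = 0.0402 in limma), a call lost under 10 of 20 alternatives.

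ST3Gal and ST6Gal enzymes need galactose to act on. Of 9 tested galactosyltransferases and core acceptor genes, 3 rose, 2 fell and 4 did not pass (median 0.13). B4galt5, which makes lactosylceramide, the lipid that St3gal5 sialylates, rose to 1399 ± 117 normalized counts in IL-33 mice, against 328 ± 54.6 in vehicle mice (log2 2.10), and B4galt6, with the same reaction, to 1386 ± 85.8, against 893 ± 15.4 (log2 0.63). B4galt4 fell to 268 ± 28.1, against 829 ± 60.8 (log2 -1.63), and Gcnt1, which branches O-glycans, to 1898 ± 169, against 3601 ± 302 (log2 -0.92); the highest adjusted p of the 4 was 1.88e-06 in limma.

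Of the 9 ganglioside genes, 2 rose, 6 fell and 1 did not pass (median -0.79). Ugcg, which makes glucosylceramide at the start of the route, rose to 2908 ± 474 normalized counts in IL-33 mice, against 802 ± 41.4 in vehicle mice (log2 1.84, adjusted p = 2.05e-11 in limma), while St3gal5 further along was lower. Of the lysosomal hydrolases of the list, Hexa fell to 1080 ± 141, against 2580 ± 301 (log2 -1.26), and Glb1 to 213 ± 49.9, against 389 ± 93.4 (log2 -0.86, adjusted p = 0.00146 in limma). The Glb1 groups overlapped, and in females alone it was not called.

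Of the 5 carriers of polysialic acid, which St8sia4 modifies or may modify, 2 rose, 2 fell and 1 did not pass (median 0.40). Ccr7, a chemokine receptor counted among the 2 that rose, had 3021 ± 557 normalized counts in IL-33 mice, against 2.52, 8.72, 0.92 and 0 in vehicle mice 5 to 8. All of its vehicle values were under the filter of 10, so that it was tested only through the IL-33 group, and the vehicle mean of 3.04 rested mostly on mouse 6. Nrp2, a semaphorin receptor, rose to 7478 ± 237, against 1270 ± 84.1 (log2 2.56, adjusted p = 1.57e-14 in limma). The RNA of Ccr7 and Nrp2 was thus higher in the IL-33 group, in which that of St8sia4 was lower. This restates the contrast between the treatments, and a relation to St8sia4 from mouse to mouse was not tested. Cadm1, an adhesion molecule, fell to 352 ± 35.5, against 964 ± 78.4 (log2 -1.45), and Glg1, a Golgi glycoprotein, to 1248 ± 130, against 1578 ± 64.9 (log2 -0.34, adjusted p = 0.00117 in limma), a call lost in females alone.

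Of the 8 tested Siglec receptors, 1 rose, 3 fell and 4 did not pass (median -0.56). Cd33 fell to 3858 ± 535 normalized counts in IL-33 mice, against 12595 ± 602 in vehicle mice (log2 -1.72), and Siglech to 3343 ± 332, against 10074 ± 736 (log2 -1.59), whereas Siglece, an inhibitory receptor of mouse myeloid cells, rose to 2774 ± 279, against 991 ± 120 (log2 1.49, adjusted p = 8.19e-10 in limma). Of the 3 tested genes of selectin ligand synthesis, in which St3gal4 and St3gal6 take part, 1 fell and 2 did not pass (median -0.26). Selplg, the protein that carries the P-selectin ligand, fell to 3611 ± 205, against 16618 ± 4182 (log2 -2.16, adjusted p = 3.2e-05 in limma).

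**Figure D4:**
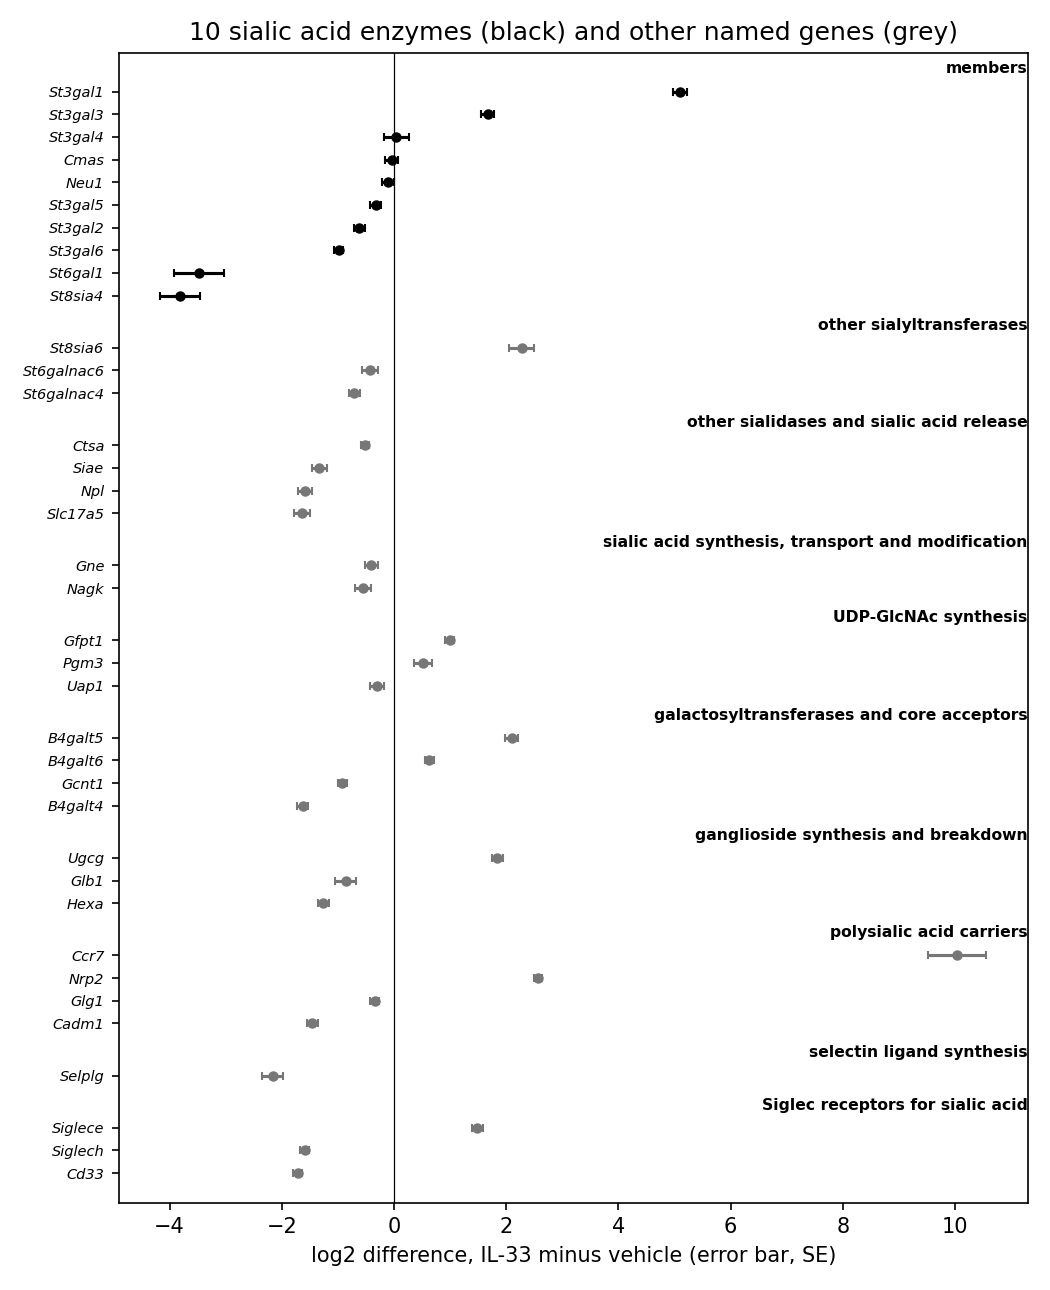
Log2 difference (IL-33 minus vehicle, of the normalized count plus 1) with its SE, n = 4 mice per treatment, for the 10 enzymes in black and 27 other named genes of the pathway in grey, grouped by list. Values right of 0 are higher in IL-33 mice: St3gal1 is at 5.10 and St3gal3 at 1.67, and St6gal1 at -3.47 and St8sia4 at -3.81.

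The authors' deposited table of their own comparison lists 7029 genes, against 53801 with normalized counts, with adjusted p-values up to 0.00996. It holds the same 7 enzymes. It gives the same comparison on the same counts, so this is no independent support. Its log2 fold changes (IL-33 over vehicle) are 5.12 for St3gal1, 1.67 for St3gal3, -0.33 for St3gal5, -0.62 for St3gal2, -0.99 for St3gal6, -3.48 for St6gal1 and -3.72 for St8sia4 in the authors' deposited table.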

How the data were processed

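Cortical microglia of 8 mice, 4 given IL-33 and 4 given vehicle, were enriched on 22% Percoll and sorted, and sequenced as Nugen Ovation RNA-Seq System V2 libraries, per the labels' protocols. The deposited expression values are a signal: read counts divided by the authors by 1 size factor per library. FastQC, STAR 2.6.0, HTSeq 0.9.0, DESeq2 1.24.0, mm10 and GRCm38 are named in the submitters' processing notes, without a role; the sources used here do not give strand setting or annotation. In every library 100% of values were whole reads within 0.001 reads, so read counts were recovered from the deposited values. The authors' deposited comparison table gives, per the file headers, log2 fold changes, a score (the fold change over its standard error), p-values and adjusted p-values.

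Genes were matched by Ensembl identifier to GENCODE M21 (53620 of 53801 found), which gave names, coordinates and exon lengths; the number of per-sample columns without a mouse was 0. Limma 3.58.1 in R 4.3.3 (lmFit, eBayes with trend and robust) was fitted to log2 of the normalized count plus 1, with terms for treatment and sex, over genes that reached 10 normalized counts in 4 or more libraries. An adjusted p (Benjamini-Hochberg, two-sided) under 0.05 was called; the pseudocount understates the change of low genes. The difference between the sexes was an interaction term. On simulated data (10 runs of 14788 to 14828 genes, IL-33 against vehicle) 200 genes per run were given a change. Simulated log2 changes of 0.5, 1 and 2 were recovered in 36.5%, 74.8% and 98.3% of cases, with 5.77% false among the calls. In the real data 57.7% of tested genes were called, a far larger share, so these rates need not hold there. edgeR 4.0.16 and DESeq2 1.42.0 on recovered reads were alternatives, beside other pseudocounts, filters, scalings, single sexes and each mouse left out. Over 12 pairs of mice of a group the chi-square per degree of freedom of reads was 4 to 18.8, so each mouse counted as 1 replicate.

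The enzymes and the gene lists were chosen with earlier results of these data known. Named genes were the 10 enzymes, up to 4 called genes of each pathway list with the largest log2 difference and a mean normalized count of 50 or more, the nearest gene of each enzyme and the highest marker of a list; some results that met this rule are not reported here.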

Additional observations from a re-analysis of the deposited data

Results flagged for a closer look

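St6gal1 was lower after IL-33 by more in males than in females: the log2 difference between IL-33 and vehicle was -4.56 in males and -2.39 in females, and the male minus female gap of -2.16 had an adjusted p of 0.00206 in limma's interaction test (n = 2 mice per treatment and sex). Both IL-33 males (34.8 and 31.2 normalized counts) were below both IL-33 females (93.3 each), and both vehicle males (745 and 853) were above both vehicle females (525 and 466). St6gal1 was the only gene of 15110 called in that fit, and 29 genes were called by DESeq2 and 1 by edgeR.

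In 74 groups of 4 mice checked (37 genes in each treatment), 6 held a mouse far from the other 3; chance flags about 1 in 20 groups. No group of the 10 enzymes was among them. St8sia6 was at 300.2 normalized counts in IL-33 mouse 1 and at 185 to 200.4 in the other IL-33 mice. Glb1 was at 287 in IL-33 mouse 1, the other IL-33 mice lying at 181 to 194. Gcnt1 was at 2148 in IL-33 mouse 3 and at 1776 to 1839 in the others of its group. In vehicle mouse 6, Selplg was at 10378 against 18156 to 19217 in the other vehicle mice, Hexa at 2130 against 2697 to 2753, and Cd33 at 11697 against 12815 to 12958. That mouse is also the one whose reads differed most from those of its group.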

How the results depend on the processing

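The log2 differences of the 7 enzymes whose groups did not overlap kept their direction under all 21 alternatives. The count of enzymes without overlap, beside 52.3% of all tested genes over all mice, was 7 under all 10 alternatives tried for it. For many alternatives this outcome was fixed. Leaving out mice, or taking a single sex, cannot make separate groups overlap or turn their direction. Filters, the sex term, eBayes without trend and robust, and matching by symbol do not alter the estimate. Neither tally is therefore read as support. Leaving out each mouse gave 8064 to 8712 called genes, 6 to 7 enzymes past the threshold, counted as a description (St3gal5 is the one not counted without vehicle mouse 5), 34 to 36 called pathway genes and 7 to 7 enzymes without overlap. Females alone gave 6336 called genes and males alone 7542. In single sexes the values of St6gal1, St3gal3, St3gal6 and St8sia4 moved by more than the spread between mice. Taking the longest transcript as length, the difference in share of the summed level (IL-33 minus vehicle, in percentage points) was 6.57 for St3gal3, -25.25 for St3gal6 and -2.16 for St8sia4, against 7.23, -23.24 and -1.41 over all exons. That of St3gal4 was 0.06 and, leaving out each mouse, lay between -0.061 (IL-33 mouse 3 left out) and 0.21, turning to -0.015 when IL-33 mouse 2 was left out. The St6gal1 difference between the sexes was -2.16 and not called under eBayes without trend and robust (adjusted p 0.173); leaving out each mouse it lay between -2.26 and -2.06, and was not called without vehicle mouse 7 (0.0558) or 8 (0.053); these alternatives were chosen after seeing the data. In that test limma called 371 genes without vehicle mouse 5 and 29 with no filter on low values. Of 540 settings for the 27 named pathway genes, 0 reversed and 19 lost the call. These genes were named because they were called, and for many settings a reversal could not occur, for the reasons given above for the enzymes. That 0 reversed is therefore not read as support either. No paired analysis was possible because the mice of the treatments share no replicate number. With 10 reads of St8sia4 in 1 mouse and 28 to 94 of St6gal1 in IL-33 mice, counting error limits the precision of their ratios. The causes of these changes were not tested.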
